A study of Mus musculus with 8 samples.

Results

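Methylation of lysine 9 on histone H3 (H3K9) is a chromatin mark of silent genes and repeats. SETDB1, EHMT1, EHMT2, SUV39H1 and SUV39H2 write the mark, and the heterochromatin protein 1 (HP1) proteins, encoded by Cbx1, Cbx3 and Cbx5, bind it. In mouse embryonic stem (ES) cells, TRIM28 carries SETDB1 to endogenous retroviruses and imprinted regions, where DNA-binding KRAB zinc finger proteins recruit it.

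The RNAs of these 9 genes (Setdb1, Ehmt1, Ehmt2, Trim28, Suv39h1, Suv39h2, Cbx1, Cbx3 and Cbx5) were followed through 2 kinds of RNA immunoprecipitation (IP). Every array probe that carried one of the 9 gene names was taken, which gave 21 of the 41174 probes and 9 of the 27961 gene names on the array. The study asked which RNAs are bound by DAZL, an RNA-binding protein of germ cells. All RNA came from 1 cell line, a re-derived mouse ES line carrying a Dazl-GFP transgene, kept on a layer of irradiated feeder fibroblasts with 15% serum, LIF, 1 µM PD0325901 (a MEK inhibitor) and 3 µM CHIR99021 (a GSK3β inhibitor). The 3 GFP IP arrays held RNA pulled down with an antibody against GFP under native conditions, that is, without crosslinking. The 2 PABP1 IP arrays held RNA pulled down in the same way with an antibody against PABP1, which binds poly(A) tails, and the 3 input arrays held RNA with no antibody. Total RNA was labelled with Cy3 and measured on 1-colour Agilent arrays.

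The arrays analysed here include no control-antibody IP, and neither the labels nor the files say whether GFP is fused to DAZL in this line. Since the labels do not say that arrays of a group are separate cultures, the p-values reflect only how far these samples spread, and that spread may be technical. The feeder cells also carry these genes. Between groups, a difference in the share of feeder RNA and a difference in how well an RNA was recovered cannot be told apart. All 10 ES cell markers and all 15 feeder fibroblast markers looked for passed the filter on dim probes described below. The summed linear level of the feeder markers, in units of each array's 75th percentile, was 130.1 to 178.1 on the GFP IP arrays, 422 to 430 on the PABP1 IP arrays and 277 to 359 on the input arrays. That of the ES markers was 1533 to 2075 on the GFP IP arrays, 2051 to 3970 on the PABP1 IP arrays and 2236 to 4232 on the input arrays, a sum led by Dppa5a, whose log2 level averaged 10.13, 11.13 and 11.45 in the GFP IP, the PABP1 IP and input. Counted gene by gene, of the 10 ES markers 6 were higher and 2 lower in the GFP IP over input, 4 higher and 1 lower in the PABP1 IP over input, and 5 higher and 3 lower in the GFP IP over the PABP1 IP. Of the 15 feeder markers, 1 was higher and 11 lower in the GFP IP over input, 7 higher and 1 lower in the PABP1 IP over input, and 2 higher and 13 lower in the GFP IP over the PABP1 IP. These marker counts rest on 1 probe per gene, and the shares over all tested probes are given below. Fbn1, Col6a1 and Lum, counted higher in the PABP1 IP over input, passed the filter only through the IPs, which favoured that call. Col5a1 was counted higher there at 0.66, but its other tested probe was lower, at -2.96 (limma adjusted p = 4.5e-05). The part of either cell type in the differences below was not tested. Arrays of a group correlated at 0.973 to 0.992 across probes, and arrays of different groups at 0.843 to 0.921. Arrays also deviated with the slide they lay on, and each slide held all 3 groups. Slide 1 held GFP IP 2, PABP1 IP 1 and inputs 1 and 2, and slide 2 held GFP IP 1 and 3, PABP1 IP 2 and input 3.

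All values below are log2 signal minus the array's own 75th percentile, so that 0 is as bright as that percentile. A difference between groups therefore says how a probe moved against that percentile, not how much RNA was recovered. Differences are given with their standard error and an adjusted p from limma, with a threshold of 0.05, and were also computed within each slide. Of the 21 probes, 14 were tested, at least 1 for each gene, because in 1 group or more the whole group's arrays were well above background. The other 7 were 1 of the 2 Setdb1 probes, 1 of the 2 Ehmt1 probes, 3 of the 5 Suv39h2 probes, 1 of the 3 Cbx3 probes and 1 of the 4 Cbx5 probes. Of those 7, the Suv39h2 probe A_52_P187046 was well above background on 1 array and the others on 0. No probe of the 9 genes was saturated.

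The 3 groups differed over much of the array. In the GFP IP over input, 5 of the 14 probes were higher (35.7%, against 24.2% of all 20623 tested probes) and 2 were lower (14.3%, against 39.1%). In the PABP1 IP over input, 3 were higher (21.4%, against 34.5%) and 5 were lower (35.7%, against 25.9%). Between the IPs, 7 were higher in the GFP IP than in the PABP1 IP (50%, against 26.6%) and 3 were lower (21.4%, against 43.7%). The number called in either direction, 7, 8 and 10 of 14 for those comparisons, stood beside backgrounds of 63.3%, 60.4% and 70.3%. Both tested Suv39h2 probes passed the filter only through the IP arrays. The differences from input were built into the testing of A_52_P16931, well above background on 0 of the 3 inputs. The filter also favoured the differences of A_51_P419169 from input, with 2 of the 3 inputs well above background.

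The median difference of the 14 probes was 0.21 in the GFP IP over input, -0.14 in the PABP1 IP over input and 0.41 in the GFP IP over the PABP1 IP. Over all tested probes the medians were -0.38, 0.22 and -0.52. Above those medians lay 12, 5 and 11 of the 14 probes. The comparisons share arrays, so their values are not independent of each other. The scaling moved the balance of calls: with arrays scaled to their median over all probes, 64.3% of all called probes were higher in the GFP IP over input, against 38.2% with the 75th percentile. With that median scaling 11 of the 14 probes were higher and 1 lower, beside 7006 higher and 3887 lower of all 20623 tested probes. For the GFP IP over the PABP1 IP the share higher among called probes was 52% with the median scaling and 51% with the percentile taken over probes well above background on all arrays, against 37.8%. Under those settings 9 and 10 of the 14 probes were higher, beside 6709 and 6959 of all 20623 tested probes.

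**Figure D1:**
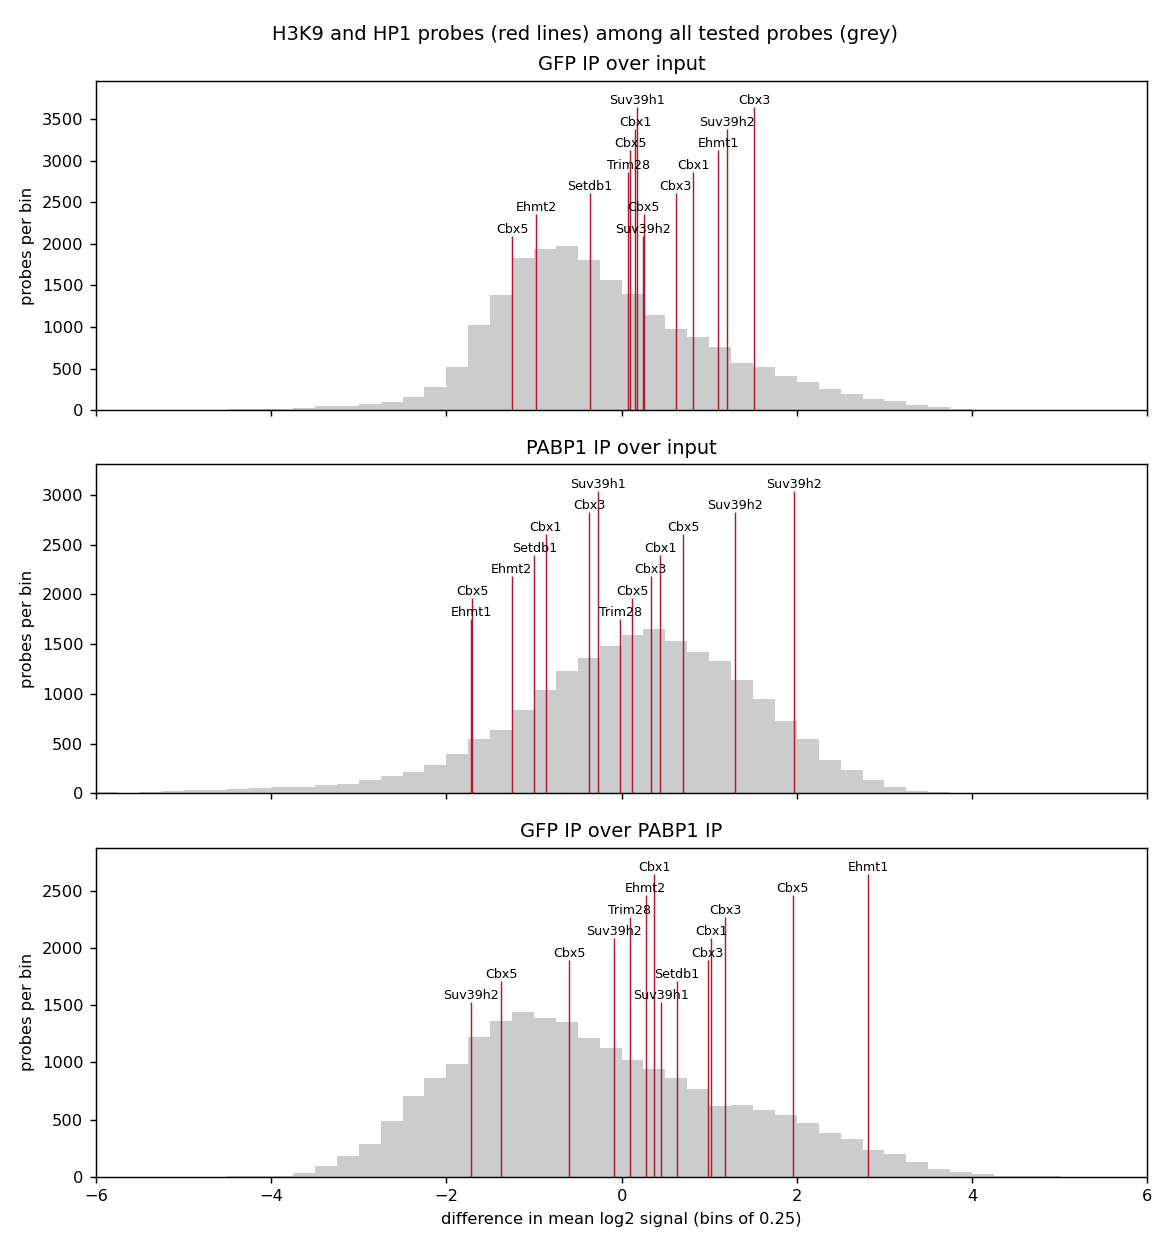
Histograms of the difference in mean log2 signal (x axis, bins of 0.25) over all 20623 tested probes (y axis, probes per bin), 1 panel per comparison, with the 14 tested probes of the 9 genes as red lines carrying the gene symbol; line height has no meaning. In the panel of the GFP IP over the PABP1 IP, the Ehmt1 line lies in the right tail at 2.82, and the Suv39h2 and Cbx5 lines at -1.72 and -1.37 lie left of the median of -0.52.

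Among the methyltransferases, Ehmt1 RNA was higher in the GFP IP than in input and lower in the PABP1 IP than in input. Ehmt1 encodes GLP, which pairs with EHMT2 to place mono- and dimethylation on H3K9. Its probe A_51_P485768 stood at 3.83, 3.63 and 3.67 on the GFP IP arrays, at 0.86 and 0.93 on the PABP1 IP arrays, and at 2.35, 2.74 and 2.74 on the input arrays. Every GFP IP array was above every input array, and every PABP1 IP array was below all of them, so no groups overlapped. Ehmt1 was 2.15-fold higher in the GFP IP than in input (difference 1.10 ± 0.15, adjusted p = 0.000536), with differences of 1.09 within slide 1 and 1.01 within slide 2. It was 3.28-fold lower in the PABP1 IP than in input (difference -1.72 ± 0.16, adjusted p = 0.000114), with differences of -1.69 and -1.81 within slides 1 and 2. Between the IPs the ratio was 7.05-fold in favour of the GFP IP (difference 2.82 ± 0.16, adjusted p = 1.4e-05), which ranked 639 of 20623 probes from the top. That was 3.34 above the median probe of the comparison.

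Ehmt2 RNA was below input in both IPs. Ehmt2 encodes G9a, the partner of GLP. Probe A_51_P343016 read 6.11, 6.06 and 5.96 in the GFP IP, 5.80 and 5.74 in the PABP1 IP, and 7.23, 7.04 and 6.79 in input. All 5 IP arrays lay below the lowest input array. Ehmt2 was 1.97-fold lower in the GFP IP than in input (difference -0.98 ± 0.14, adjusted p = 0.00081). It was 2.38-fold lower in the PABP1 IP than in input (difference -1.25 ± 0.16, adjusted p = 0.000404). Both IPs stayed below input within slide 1 (-1.07 and -1.34) and within slide 2 (-0.76 and -1.06). The GFP IP arrays did not overlap the PABP1 IP arrays, but the difference of 0.28 ± 0.16 missed the threshold (adjusted p = 0.150, 95% interval -0.09 to 0.65). It passed, at 0.68 to 1.24, under 4 other scalings. Scaling to the array median left the GFP IP at -0.44 against input, short of the threshold (adjusted p = 0.0616).

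Setdb1 RNA was lowest in the PABP1 IP. Setdb1 encodes a methyltransferase that places trimethylation on H3K9 at retroviral repeats in mouse ES cells. Probe A_52_P609475 had values of -0.25, 0.13 and -0.08 in the GFP IP, -0.67 and -0.73 in the PABP1 IP, and 0.41, 0.40 and 0.08 in input. The PABP1 IP arrays were apart from both other groups, while GFP IP 2 lay above input 3. Against input the PABP1 IP was 2.00-fold lower (difference -0.997 ± 0.17, adjusted p = 0.00181), with differences of -1.08 within slide 1 and -0.80 within slide 2. The GFP IP was 1.55-fold above the PABP1 IP (difference 0.63 ± 0.17, adjusted p = 0.0126), a call lost within slide 2 (0.56, adjusted p = 0.0625), without PABP1 IP 1 (0.0564) or PABP1 IP 2 (0.0612), and with no filter on dim probes (0.0610). Between the GFP IP and input the difference was -0.37 ± 0.15 (adjusted p = 0.0699), 0.01 from the median of all tested probes. With the median scaling it was 0.17, while slide as a block gave -0.28 (adjusted p = 0.0406) and array weights -0.49 (0.000796), both past the threshold, as it was without input 3 (0.0305) or GFP IP 2 (0.0460).

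Suv39h1 RNA was higher in the GFP IP than in the PABP1 IP. Suv39h1 and Suv39h2 encode the enzymes that trimethylate H3K9 in the heterochromatin around centromeres. The Suv39h1 probe A_51_P510441 stood at 0.04, -0.03 and 0.11 in the GFP IP, at -0.46 and -0.34 in the PABP1 IP, and at -0.09, -0.17 and -0.14 in input. The 3 groups did not overlap, with the GFP IP highest and the PABP1 IP lowest. Suv39h1 was 1.36-fold higher in the GFP IP than in the PABP1 IP (difference 0.45 ± 0.12, adjusted p = 0.0124). That call was lost within slide 1 (0.44, adjusted p = 0.142), within slide 2 (0.42, 0.108), without PABP1 IP 1 (0.0962) or GFP IP 3 (0.0507), and with no filter on dim probes (0.104). Against input, neither the GFP IP (0.17 ± 0.11, adjusted p = 0.189) nor the PABP1 IP (-0.27 ± 0.12, adjusted p = 0.0861) passed the threshold. Other settings gave such calls: the GFP IP over input was 0.34 (adjusted p = 0.0289) with the percentile over probes well above background on all arrays, 0.71 (0.0199) with median scaling and 0.25 (0.00738) with array weights, and the PABP1 IP over input was -0.51 (0.00835) with that percentile and -0.28 (0.0277) with slide as a block.

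Suv39h2 was dim, and its tested probes are listed under the same RefSeq transcript. Probe A_51_P419169 passed the filter only through the IPs, which favoured its differences from input. It was well above background on all IP arrays and on 2 of the 3 input arrays. It read -2.07, -2.09 and -1.79 in the GFP IP, -0.50 and -0.04 in the PABP1 IP, and -2.37, -2.30 and -2.02 in input. The PABP1 IP arrays were above all others, and the GFP IP and input arrays overlapped. By this probe the PABP1 IP was 3.90-fold above input (difference 1.96 ± 0.20, adjusted p = 0.000144), with differences of 1.84 within slide 1 and 1.98 within slide 2. Against the PABP1 IP the GFP IP was 3.28-fold lower (difference -1.72 ± 0.20, adjusted p = 0.000201). The GFP IP exceeded input by 0.25 ± 0.18 (adjusted p = 0.249, 95% interval -0.17 to 0.66).

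The other tested Suv39h2 probe, A_52_P16931, was well above background on all IP arrays and on 0 of the 3 input arrays. Its values were -2.60, -2.94 and -3.12 in the GFP IP and -2.98 and -2.62 in the PABP1 IP, with inputs at -4.21, -3.65 and -4.42. The IPs overlapped each other and lay above input. Since input gave only a bound, each fold was taken over the lowest signal among probes well above background on the array, or over the probe's own signal where that was higher. By that measure the GFP IP was at least 1.39-fold above input and the PABP1 IP at least 1.48-fold above input. These bounds were not tested. The limma calls were made on the unbounded differences of 1.20 (adjusted p = 0.00384) and 1.29 (adjusted p = 0.00464). Both calls were lost within slide 1 alone (adjusted p = 0.0602 and 0.0628). Unlike A_51_P419169, this probe showed a difference between the IPs of only -0.09 ± 0.27 (adjusted p = 0.772). The contrast between the probes was not tested.

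**Figure D2:**
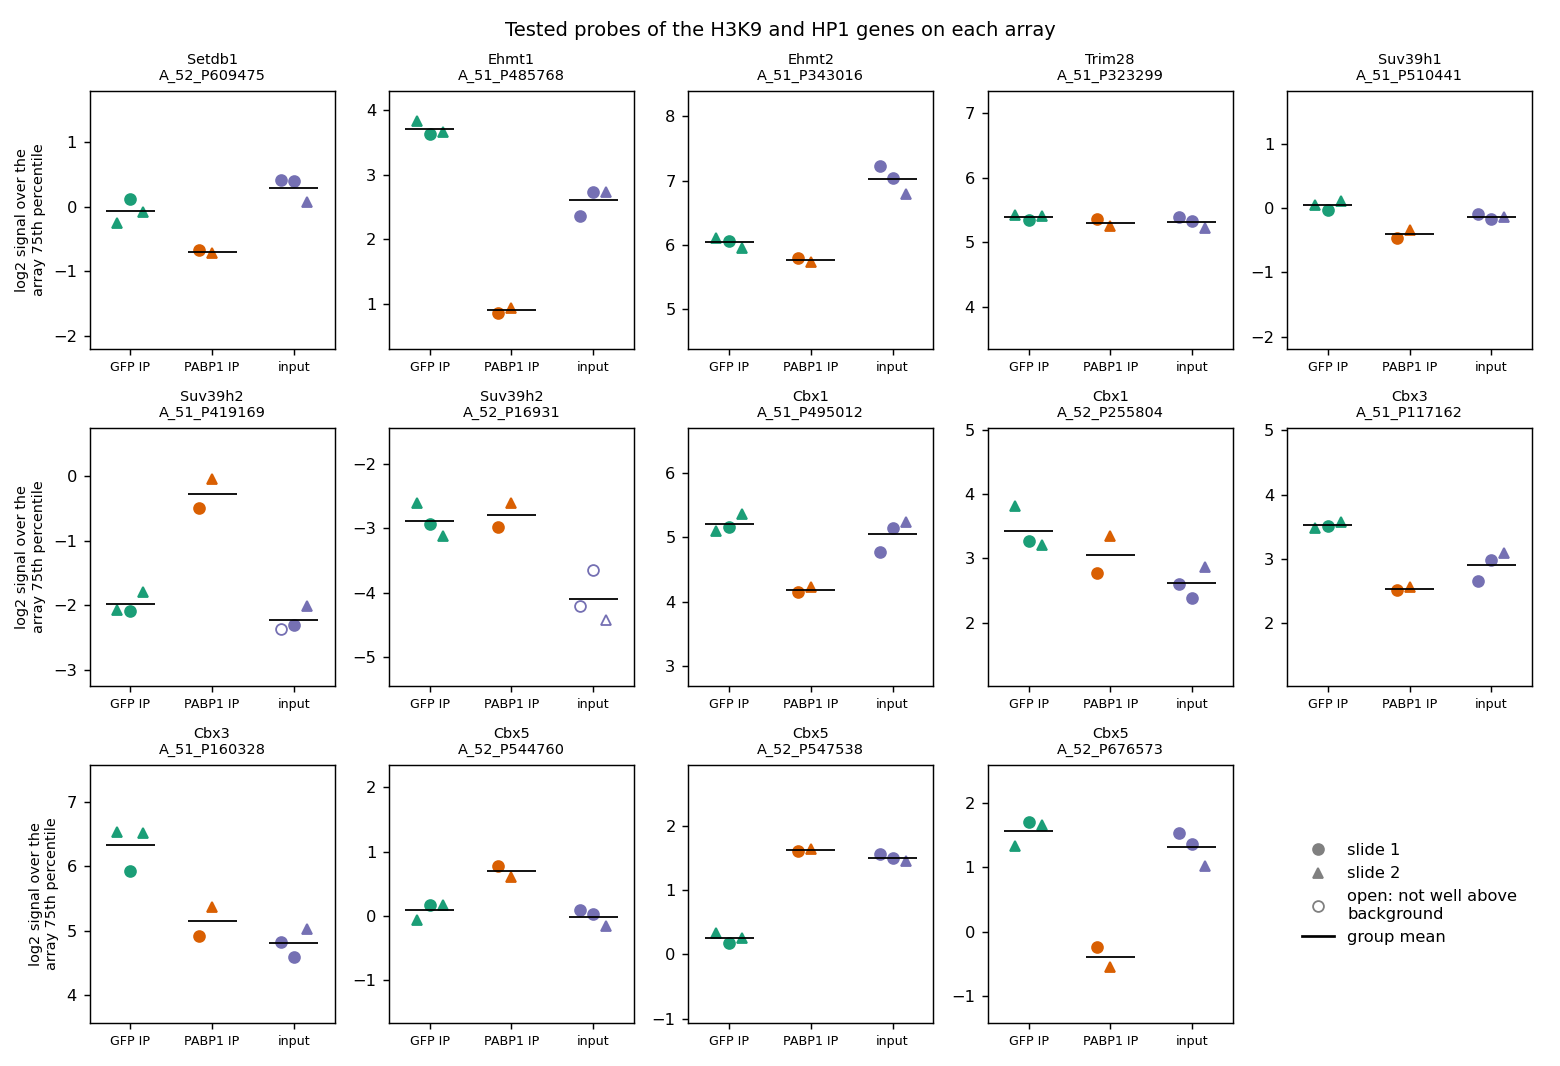
Signal on the log2 scale relative to each array's 75th percentile (y axis, with the same span in each panel) of the 14 tested probes on each of the 3 GFP IP, 2 PABP1 IP and 3 input arrays. Circles are arrays of slide 1, triangles those of slide 2, open symbols mark signals not well above background, and black lines are group means; Ehmt1 separates into 3 levels, Trim28 stays between 5.23 and 5.43, and the 3 Cbx5 panels show different orders of the groups.

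None of the 3 Trim28 differences passed the threshold with limma at the main scaling, nor did any have an unadjusted p under 0.05. TRIM28, also called KAP1, is the corepressor that links KRAB zinc finger proteins to SETDB1 and HP1. Probe A_51_P323299 stood at 5.43, 5.34 and 5.41 in the GFP IP, at 5.36 and 5.25 in the PABP1 IP, and at 5.39, 5.33 and 5.23 in input. All 8 arrays lay between 5.23 and 5.43, and every pair of groups overlapped. The GFP IP minus input was 0.08 ± 0.11 (adjusted p = 0.549, 95% interval -0.18 to 0.34). The PABP1 IP minus input was -0.01 ± 0.12 (adjusted p = 0.934, interval -0.30 to 0.27), and the GFP IP minus the PABP1 IP was 0.09 ± 0.12 (adjusted p = 0.518, interval -0.20 to 0.38). Under other scalings each of these differences passed the threshold: the GFP IP was above input by 0.61 with the median scaling, 0.45 with quantile normalization and 0.43 with normexp, and the PABP1 IP differed from input by -0.44 and -0.49 with the last 2 settings. The GFP IP over the PABP1 IP passed it under 4 scalings, at 0.49 with the percentile over probes well above background on all arrays (adjusted p = 0.00521), 0.55 with median scaling (0.0398), 0.89 with quantile normalization (0.000343) and 0.92 with normexp (1.2e-05). Relative to the median of all tested probes, Trim28 stood at 0.46 in the GFP IP over input, -0.24 in the PABP1 IP over input and 0.61 in the GFP IP over the PABP1 IP.

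Of the HP1 genes, Cbx3 was the one whose tested probes were both higher in the GFP IP than in input and than in the PABP1 IP. Cbx3 encodes HP1γ, which is found in silent chromatin and also along transcribed genes. Probe A_51_P160328 read 6.54, 5.93 and 6.51 in the GFP IP, 4.93 and 5.37 in the PABP1 IP, and 4.83, 4.59 and 5.03 in input. All GFP IP arrays were above all others, and the PABP1 IP and input arrays overlapped. Cbx3 was 2.85-fold higher in the GFP IP than in input (difference 1.51 ± 0.22, adjusted p = 0.000913), with differences of 1.22 within slide 1 and 1.50 within slide 2. In the GFP IP it was 2.27-fold above the PABP1 IP (difference 1.18 ± 0.25, adjusted p = 0.00417). The PABP1 IP minus input was 0.33 ± 0.25 (adjusted p = 0.289), and -0.07 with quantile normalization.

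The second tested Cbx3 probe, A_51_P117162, is listed under the same transcript. It gave 3.49, 3.52 and 3.57 in the GFP IP, 2.52 and 2.56 in the PABP1 IP, and 2.65, 2.98 and 3.09 in input. The 3 groups did not overlap, with the GFP IP highest and the PABP1 IP lowest. By this probe the GFP IP was 1.53-fold above input (difference 0.62 ± 0.14, adjusted p = 0.00699), a call that neither slide alone gave (0.70, adjusted p = 0.0678, within slide 1 and 0.43, adjusted p = 0.117, within slide 2). The GFP IP was also 1.98-fold above the PABP1 IP (difference 0.98 ± 0.16, adjusted p = 0.00107), while the PABP1 IP missed the threshold against input (-0.37 ± 0.16, adjusted p = 0.0795) but passed it under 6 of the 21 alternatives, among them slide as a block (-0.39, adjusted p = 0.0382).

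Cbx1, which encodes HP1β, gave calls in different comparisons with its 2 probes. Probe A_51_P495012 read 5.10, 5.17 and 5.36 in the GFP IP, 4.15 and 4.23 in the PABP1 IP, and 4.77, 5.15 and 5.24 in input. The PABP1 IP arrays were below all others, and the GFP IP and input arrays overlapped. The PABP1 IP was 1.82-fold below input (difference -0.87 ± 0.18, adjusted p = 0.00411), with differences of -0.82 within slide 1 (adjusted p = 0.0529) and -1.01 within slide 2. Relative to the PABP1 IP the GFP IP was 2.03-fold higher (difference 1.02 ± 0.18, adjusted p = 0.00155) and differed from input by 0.15 ± 0.16 (adjusted p = 0.415).

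The other Cbx1 probe, A_52_P255804, is listed under a predicted transcript. Its values were 3.81, 3.28 and 3.21 in the GFP IP, 2.78 and 3.34 in the PABP1 IP, and 2.60, 2.39 and 2.87 in input. The GFP IP arrays were above the input arrays, and the PABP1 IP arrays overlapped both. Against input the GFP IP was 1.76-fold higher (difference 0.81 ± 0.24, adjusted p = 0.0192), with differences of 0.78 within slide 1 and 0.64 within slide 2 (adjusted p = 0.152). Without input 1, input 2 or GFP IP 1 the adjusted p was 0.0524, 0.0666 and 0.0576. The PABP1 IP minus input was 0.44 ± 0.26 (adjusted p = 0.187) and the GFP IP minus the PABP1 IP was 0.37 ± 0.26 (adjusted p = 0.234).

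The 3 tested probes of Cbx5, which encodes HP1α, each ordered the groups differently. A_52_P547538 gave 0.33, 0.17 and 0.25 in the GFP IP, 1.61 and 1.64 in the PABP1 IP, and 1.56, 1.49 and 1.46 in input. The GFP IP arrays were far below both other groups. Against input the GFP IP was 2.38-fold lower (difference -1.25 ± 0.11, adjusted p = 8.2e-05), with differences of -1.35 within slide 1 and -1.17 within slide 2. Its GFP IP mean was 2.59-fold below the PABP1 IP (difference -1.37 ± 0.12, adjusted p = 5.5e-05), and the PABP1 IP differed from input by 0.12 ± 0.12 (adjusted p = 0.398).

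A second Cbx5 probe listed under the same transcript, A_52_P544760, gave -0.07, 0.17 and 0.17 in the GFP IP, 0.78 and 0.60 in the PABP1 IP, and 0.09, 0.03 and -0.15 in input. Here the PABP1 IP arrays were above all others, and the GFP IP and input arrays overlapped. The PABP1 IP was 1.62-fold above input (difference 0.70 ± 0.15, adjusted p = 0.00488), with differences of 0.72 within slide 1 and 0.75 within slide 2 (adjusted p = 0.0605). Relative to the PABP1 IP the GFP IP was 1.52-fold lower (difference -0.60 ± 0.15, adjusted p = 0.00844), a call lost under 6 of the alternatives, among them median scaling (-0.14, adjusted p = 0.480), each slide alone and leaving out PABP1 IP 1 (0.0711). Against input the GFP IP stood at 0.10 ± 0.13 (adjusted p = 0.524).

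The third, A_52_P676573, is listed under a predicted transcript variant of Cbx5. It read 1.33, 1.71 and 1.66 in the GFP IP, -0.23 and -0.55 in the PABP1 IP, and 1.54, 1.37 and 1.03 in input. The PABP1 IP arrays were below all others, and the GFP IP and input arrays overlapped. Against input the PABP1 IP was 3.25-fold lower (difference -1.70 ± 0.21, adjusted p = 0.000366), with differences of -1.69 within slide 1 and -1.57 within slide 2. The GFP IP was 3.87-fold above the PABP1 IP (difference 1.95 ± 0.21, adjusted p = 0.000146) and did not pass the threshold against input (0.25 ± 0.19, adjusted p = 0.269), but a slide block brought it past (0.36, adjusted p = 0.0372), as did median scaling (0.79, 0.00357). So the GFP IP over the PABP1 IP called 1 Cbx5 probe higher and 2 lower. Where in the transcripts these probes bind was not analysed here.

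**Figure D3:**
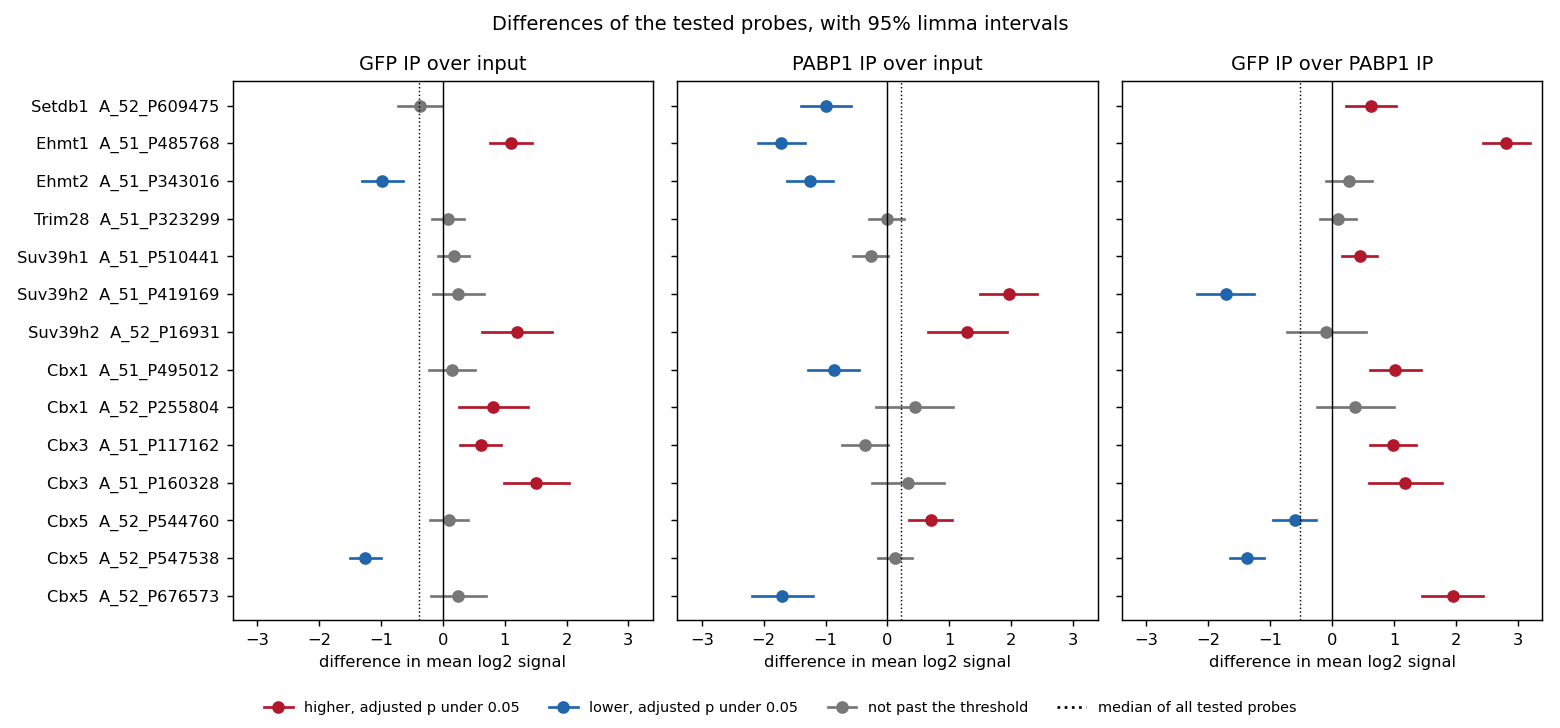
Difference in mean log2 signal (x axis) of the 14 tested probes with 95% limma intervals, in the GFP IP over input, the PABP1 IP over input and the GFP IP over the PABP1 IP; red is higher, blue is lower, grey missed the threshold, and the dotted line is the median of all tested probes. The Ehmt1 point lies at 1.10, -1.72 and 2.82 in the 3 panels, and the 3 Cbx5 points lie on both sides of 0 in each panel.

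By order of group means, the GFP IP was highest, input next and the PABP1 IP lowest for Ehmt1, with each step past the threshold. The means of Trim28, Suv39h1, the Cbx1 probe A_51_P495012, the Cbx3 probe A_51_P117162 and the Cbx5 probe A_52_P676573 had the same order, with at least 1 step short of the threshold. The GFP IP was highest and input lowest for A_52_P255804 of Cbx1 and A_51_P160328 of Cbx3, where the PABP1 IP and input did not differ beyond the threshold. Input was highest for Ehmt2 and for Setdb1, and for Setdb1 the GFP IP did not differ from it beyond the threshold. The PABP1 IP was highest for both tested Suv39h2 probes and for A_52_P544760 and A_52_P547538 of Cbx5. The next group was past the threshold below it for A_51_P419169 and A_52_P544760, and short of it for A_52_P16931 and A_52_P547538. Groups did not overlap for 8 of the 14 probes in the GFP IP over input, 11 in the PABP1 IP over input and 11 in the GFP IP over the PABP1 IP, against 68.3%, 71.2% and 80.3% of all tested probes.

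Called differences kept their sign under all 6 scalings, but their size moved. Of the methyltransferase genes, Ehmt1 ranged between 1.10 and 1.64 in the GFP IP over input, between -1.95 and -1.47 in the PABP1 IP over input and between 2.74 and 3.28 between the IPs. Ehmt2 lay between -0.98 and -0.44 and between -1.74 and -1.18 against input. Setdb1 lay between -1.23 and -0.46 in the PABP1 IP over input and between 0.32 and 1.09 between the IPs, and Suv39h1 between 0.23 and 0.90 between the IPs. The dim Suv39h2 probe A_51_P419169 lay between 0.74 and 2.10 in the PABP1 IP over input and between -1.72 and -0.57 between the IPs, and A_52_P16931 went as low as 0.24 and 0.21 in the GFP IP and the PABP1 IP over input. The lowest sizes of Suv39h2 came with normexp and its offset of 50, which by construction shrinks differences of dim probes.

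The HP1 genes moved likewise. For the GFP IP over input, A_51_P160328 and A_51_P117162 of Cbx3 ranged between 1.51 and 2.05 and between 0.62 and 1.15, A_52_P255804 of Cbx1 between 0.81 and 1.35, and A_52_P547538 of Cbx5 between -1.25 and -0.72. Against input in the PABP1 IP, A_51_P495012 of Cbx1 lay between -1.19 and -0.79, with A_52_P544760 and A_52_P676573 of Cbx5 between 0.39 and 0.78 and between -1.94 and -1.02. Between the IPs, Cbx3 gave 1.18 to 2.12 and 0.98 to 1.44 by these probes, and A_51_P495012 of Cbx1 gave 1.02 to 1.72. For Cbx5, A_52_P676573 gave 1.22 to 2.41, A_52_P547538 gave -1.37 to -0.80 and A_52_P544760 gave -0.60 to -0.14. The scalings ended 2 calls, those of Ehmt2 in the GFP IP over input and of A_52_P544760 between the IPs.

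In the authors' deposited table of group means, where it could be matched by transcript, the log2 ratio of the GFP IP over input was 1.64 for Ehmt1, -0.39 for Ehmt2, 0.16 for Setdb1, 0.60 for Trim28, 0.65 for Suv39h1, 0.58 and 1.50 for A_51_P495012 and A_52_P255804 of Cbx1, and 0.69 for A_52_P676573 of Cbx5. Its log2 ratio of the PABP1 IP over input was -1.63 for Ehmt1, -1.19 for Ehmt2, -0.94 for Setdb1, 0.07 for Trim28, -0.18 for Suv39h1, -0.84 and 0.53 for the same Cbx1 probes and -1.63 for the Cbx5 probe. The authors' deposited table thus held each of these probes higher in the GFP IP over input than the 75th percentile scaling did. That scaling gave -0.37 for Setdb1, and 0.15, 0.81 and 0.25 for the Cbx1 and Cbx5 probes. Median scaling here gave 0.17 for Setdb1, -0.44 for Ehmt2, 0.61 for Trim28 and 0.71 for Suv39h1. It gave 0.69 for A_51_P495012 and 0.79 for A_52_P676573. The scaling of the authors' table is unknown here.

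Other genes of the same pathway were taken as 5 lists with 58 genes, of which 53 were tested, each by its brightest probe. In the GFP IP over input, 24 were higher (45.3%), 17 lower (32.1%) and 12 missed the threshold, with a median of 0.07. In the PABP1 IP over input, 4 were higher (7.55%), 34 lower (64.2%) and 15 missed it, with a median of -1.09. Between the IPs, 37 were higher in the GFP IP than in the PABP1 IP (69.8%), 5 lower (9.43%) and 11 missed it, with a median of 1.01. The backgrounds over all probes are those given above, and no list was tested as a set. Phf2 passed the filter only through the GFP IP and Atrx only through input, so nothing rests on their calls, which are in the counts. Cdyl and Hdac2 passed it only through the IPs, so the filter favoured their differences from input. Kdm7a and Jmjd1c passed it only through the GFP IP and input, so the filter favoured their differences from the PABP1 IP.

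Partners of the methyltransferases and other H3K9 methyltransferases had 6 of 10 genes higher and 3 lower in the GFP IP over input, 0 higher and 6 lower in the PABP1 IP over input, and 10 of 10 higher in the GFP IP over the PABP1 IP. Those counts rest on 1 probe per gene. Between the IPs Atf7ip2 was counted at 0.80, but its other tested probes gave -1.89, -1.79 and -2.10, past the threshold the other way. In the PABP1 IP over input they gave 1.27, 1.53 and 2.33, all called higher. Atf7ip was counted at 0.41 in the GFP IP over input, where its other probes gave -1.44, -1.24 and -1.28, all called lower. Between the IPs these gave 0.07, 1.90 and 0.03, of which only 1.90 passed the threshold. Cdyl, a chromodomain protein that binds methylated H3K9, was 13.2-fold above input in the GFP IP (difference 3.73 ± 0.46, adjusted p = 0.000378), with 2 of the 3 inputs well above background. Its other tested probe gave 2.43. Zfp644, a zinc finger partner of EHMT1 and EHMT2, read -0.16, -0.14 and 0.02 in the GFP IP, -3.12 and -3.11 in the PABP1 IP, and 0.52, 0.67 and 0.95 in input. The PABP1 IP was 14.2-fold below input by that probe (difference -3.83 ± 0.16, adjusted p = 1.4e-05), whereas its 2 other probes gave -0.40 and 0.12, both short of the threshold. In the GFP IP over input Zfp644 was counted lower, at -0.81. The 2 other probes gave 1.39 there, short of the threshold (adjusted p = 0.0697), and 1.35, called higher (0.00506).

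H3K9 demethylases, which remove the mark, had 4 of 10 genes higher and 3 lower in the GFP IP over input, 0 higher and 8 lower in the PABP1 IP over input, and 7 higher and 0 lower in the GFP IP over the PABP1 IP. Phf8 stood at 3.44, 3.28 and 3.33 in the GFP IP, at -0.07 and 0.03 in the PABP1 IP, and at 1.00, 1.10 and 1.25 in input. The 3 groups were far apart, and the GFP IP was 10.3-fold above the PABP1 IP (difference 3.37 ± 0.13, adjusted p = 1.1e-05). Kdm7a was well above background on 0 of the 2 PABP1 IP arrays. There the GFP IP was at least 8.85-fold above the PABP1 IP and the PABP1 IP at least 8.36-fold below input, bounds that were not tested. The limma calls were made on the unbounded differences of 4.08 (adjusted p = 6.2e-05) and -4.00 (adjusted p = 9.6e-05). The other Kdm7a probe gave 1.95 and -2.20. Phf2, with 1 of 2 PABP1 IP arrays and 0 of 3 inputs well above background, was at least 3.03-fold above input in the GFP IP, a difference built into its being tested.

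The HUSH complex, which spreads H3K9 trimethylation together with SETDB1, was listed with MORC proteins. Of these 5 genes, 2 were higher and 1 lower in the GFP IP over input, 1 higher and 4 lower in the PABP1 IP over input, and 3 higher and 1 lower in the GFP IP over the PABP1 IP. For Tasor, the scaffold of HUSH, the GFP IP was 11.8-fold above the PABP1 IP (difference 3.56 ± 0.25, adjusted p = 2.4e-05), and its 3 other probes gave 3.67, 3.18 and 2.23. For Pphln1, which encodes the HUSH subunit periphilin, the GFP IP was 2.22-fold below the PABP1 IP (difference -1.15 ± 0.16, adjusted p = 0.000482), but the other probe gave 2.07, past the threshold the other way (adjusted p = 8.5e-05). Pphln1 was also the gene counted higher in the PABP1 IP over input, at 0.80. There its other probe gave -0.90, again past the threshold the other way (adjusted p = 0.00588).

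KRAB zinc finger proteins and TRIM28 partners had 2 of 7 genes higher and 5 lower in the GFP IP over input, 7 of 7 lower in the PABP1 IP over input, and 5 higher and 1 lower in the GFP IP over the PABP1 IP. Zfp809 was counted at -2.90 in the PABP1 IP over input and at 3.34 between the IPs. Its other tested probe passed the threshold the other way in both, at 0.95 (adjusted p = 0.0111) and -0.91 (adjusted p = 0.0118). Zfp57, a KRAB zinc finger protein that brings TRIM28 to imprinted regions, read -1.60, -1.08 and -1.30 in the GFP IP, 0.12 and -0.42 in the PABP1 IP, and 1.04, 0.93 and 0.85 in input. The groups did not overlap. For Zfp57 the GFP IP was 4.81-fold below input (difference -2.27 ± 0.19, adjusted p = 8.7e-05) and 2.25-fold below the PABP1 IP (difference -1.17 ± 0.22, adjusted p = 0.00221). Chd3 and Chd4, chromatin remodellers of the NuRD complex, were below input in the GFP IP by differences of -2.08 ± 0.20 and -1.90 ± 0.32 (adjusted p = 0.000126 and 0.00163). In the PABP1 IP, Chd4 was 11.3-fold below input (difference -3.50 ± 0.36, adjusted p = 0.000153). Of the 2 other Chd4 probes, 1 gave -3.37 and the other -0.84, which missed the threshold. In the GFP IP over input the same 2 probes gave -1.25, called lower, and 0.03, which missed the threshold (adjusted p = 0.940).

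Heterochromatin chaperones and HP1 partners had 10 of 21 genes higher and 5 lower in the GFP IP over input, 3 higher and 9 lower in the PABP1 IP over input, and 12 higher and 3 lower in the GFP IP over the PABP1 IP. The 3 that were higher in the PABP1 IP were H3f3a and H3f3b, which encode the histone variant H3.3, and the deacetylase gene Hdac1, by 1.82 ± 0.16, 1.15 ± 0.20 and 1.02 ± 0.18 (adjusted p = 9.4e-05, 0.00176 and 0.00195). Whether the H3f3a and H3f3b probes read near-identical copies was not tested. Hdac1 read 4.01, 3.65 and 3.93 in the GFP IP, 5.63 and 5.85 in the PABP1 IP, and 4.71, 4.53 and 4.91 in input, in 3 groups that did not overlap. For Hdac1 the GFP IP was 3.68-fold below the PABP1 IP (difference -1.88 ± 0.18, adjusted p = 8.2e-05). Hdac2 read -0.77, -1.80 and -0.98 in the GFP IP, -2.72 and -1.58 in the PABP1 IP, and -4.07, -4.98 and -2.63 in input. It was higher in the GFP IP than in input (adjusted p = 0.0071), but only 1 of the 3 inputs was well above background, so the size of that difference was not measured well.

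**Figure D4:**
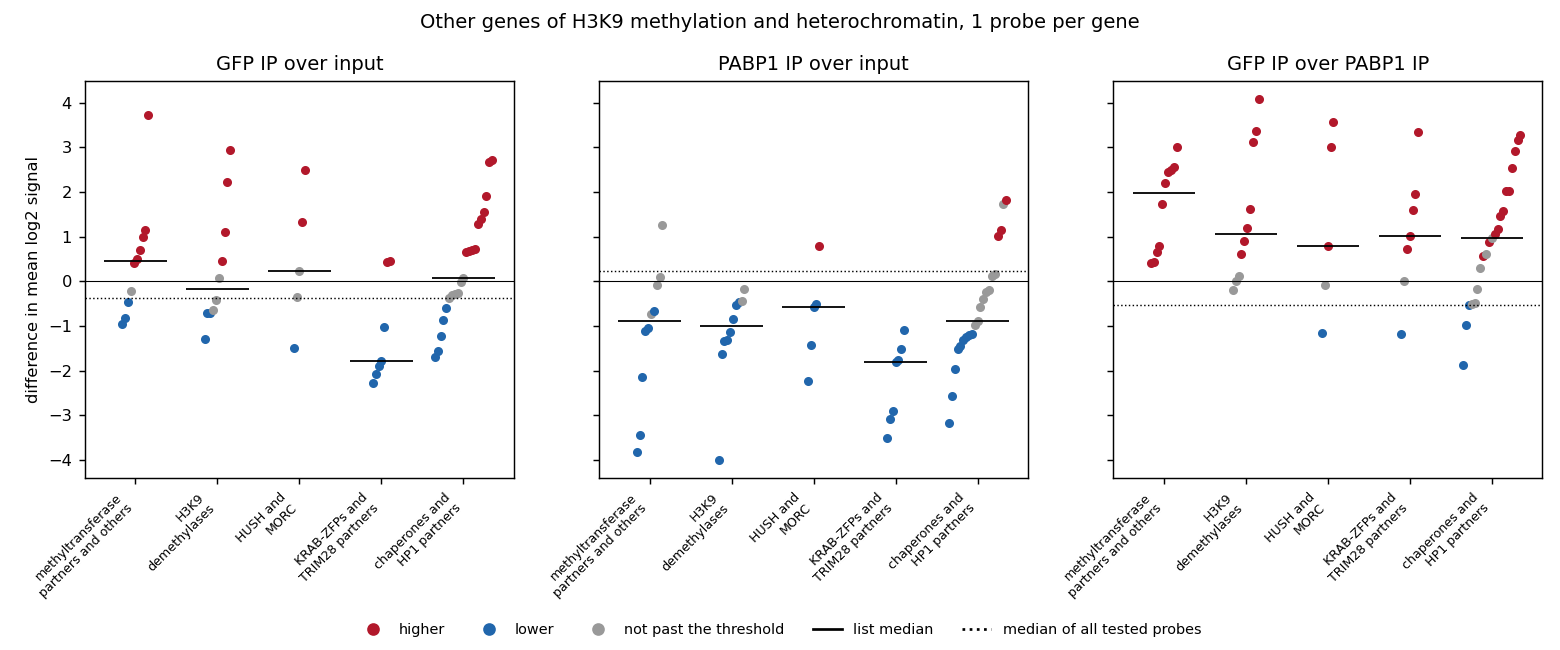
Difference in mean log2 signal (y axis) of the 53 tested genes in the 5 pathway lists (x axis), 1 point per gene, in the 3 comparisons; red is higher, blue lower, grey missed the threshold, solid lines are list medians and the dotted line the median of all tested probes. The list of KRAB zinc finger proteins and TRIM28 partners has its 7 points below 0 in the PABP1 IP over input, and the methyltransferase list has its 10 points above 0 in the GFP IP over the PABP1 IP.

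For each gene's brightest probe, the named genes with the most alike pattern over the 8 arrays were looked up among 12961 genes, as a description. The points share arrays and 3 groups, so high correlations are common: 393 genes exceeded 0.95 with Ehmt1, 381 with Ehmt2, 174 with Setdb1, 170 with Suv39h1, 296 with Suv39h2, 102 with Cbx1, 231 with Cbx3 and 685 with Cbx5, and 0 with Trim28. Among the 2 most alike genes of each were Bend4 for Ehmt1 (Pearson r = 0.998), Dhx30 and Gemin5 for Ehmt2 (0.997 and 0.995), and Sbf2 and Mideas for Setdb1 (0.997 and 0.991). They were Tiam1 and Sertad2 for Suv39h1 (0.990 and 0.985), Scx and Ppt2 for Suv39h2 (0.996 and 0.995), and Slc38a7 for Trim28 (0.936). For the HP1 genes they were Pdzd8 and Ddx3y for Cbx1 (0.995 and 0.988), Nras and Ywhag for Cbx3 (0.996 each) and Pmm2 and Noxo1 for Cbx5 (0.999 and 0.998).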

How the data were processed

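The authors read the arrays with Agilent's Feature Extraction 9.1.3.1, per the file headers, and it gave intensity values from which it had subtracted background, with spatial trends removed and dim spots replaced by a surrogate. The deposited files also hold flags, other values than brightness, for outlier, saturated and well above background spots. The authors' deposited table holds group mean intensity values of unstated scaling and was used for the ratios credited to it. No label or header names a genome build.

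Here log2 of the processed signal was lowered by the array's 75th percentile over its 43379 spots that are no controls. A probe's spots were averaged, and 32 probes were dropped for an outlier spot. The 20623 probes tested had, in 1 group or more, all arrays well above background. The 8 arrays were fitted together with limma 3.58.1 in R 4.3.3 at probe level, with group as the only term, and two-sided p-values were adjusted by Benjamini-Hochberg over all tested probes. The fit had 5 residual degrees of freedom, and the number of arrays limits the precision. The fit was tested on simulated data. Genes outside the 9 were named through a RefSeq table of GRCm38.p6 (15017 tested probes by accession, 2560 by symbol, 1273 by synonym, 1773 with the array's name).

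Groups were taken from the antibody in the labels. From the pathway lists, up to 3 called genes with the most positive and up to 3 with the most negative difference were named in each comparison. The members and lists were chosen with earlier results of these data known. Replicate numbers in the titles did not pair arrays: same-numbered arrays deviated together at r between -0.714 and 0.570, arrays of the same slide at 0.417 to 0.740, and arrays of different slides at -0.740 to -0.242. Alternatives changed the scaling, background correction, filter, probes per gene, blocks, weights, eBayes options and arrays. Some genes with alike patterns are not reported here. Plots were made in matplotlib 3.10.9 (Python 3.11.15).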

Additional observations from a re-analysis of the deposited data

How the results depend on the processing

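Over the alternatives that gave a value (20 to 22 for each probe, out of 22), the calls of 3 of 7 probes in the GFP IP over input, 5 of 8 in the PABP1 IP over input and 7 of 10 in the GFP IP over the PABP1 IP held in all. Each of the 7 probes not called in the GFP IP over input passed the threshold under at least 1 alternative, as did 3 of 6 and 3 of 4 in the other comparisons. All called probes kept their sign within both slides. In the GFP IP over input, 5 probes of the 9 genes were higher in the main setting, 11 with median scaling, 2 with 1 probe per gene, and 3 within either slide alone. Median scaling left 1 lower there, and 3887 of all tested probes lower against 8068. In the PABP1 IP over input, 3 were higher, against 1 with probes well above background on all arrays and 1 with 1 probe per gene, both settings that test fewer probes. With 1 probe per gene, 3114 of all tested probes were higher in the GFP IP over input against 4983, and 3464 in the GFP IP over the PABP1 IP against 5478.

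Leaving out 1 array at a time gave 4 to 5 higher and 2 to 3 lower probes of the 9 genes in the GFP IP over input, 3 higher and 5 to 6 lower in the PABP1 IP over input, and 5 to 7 higher and 2 to 3 lower in the GFP IP over the PABP1 IP. It gave 35 to 42, 34 to 38 and 35 to 42 called pathway genes. With the replicate number as a block, 4 were higher and 2 lower in the GFP IP over input, 3 and 5 in the PABP1 IP over input, and 7 and 3 in the GFP IP over the PABP1 IP. The block ended the call of A_52_P255804 (adjusted p = 0.0513). A slide block gave 6 and 3, 3 and 7, and 7 and 3 in the same order.

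No difference that changed sign was called in the main setting, and the cause was not tested. For A_52_P547538 the PABP1 IP over input was -0.11 with the percentile over probes well above background on all arrays and -0.00203 with normexp. For A_52_P16931 the GFP IP over the PABP1 IP was 0.31 with that percentile, 0.37 with median scaling, 0.23 with quantile normalization, 0.034 with normexp, 0.049 with the replicate block, 0.038 within slide 1, and from -0.27 to 0.091 with 1 array left out (0.091 without PABP1 IP 2 and 0.026 without GFP IP 3). Setdb1 was 0.17 in the GFP IP over input with median scaling. For A_51_P160328 the PABP1 IP over input was -0.0704 with quantile normalization and -0.0723 with normexp. Trim28 in the PABP1 IP over input was 0.062 with median scaling, 5.4e-05 and 0.018 within slides 1 and 2, and from -0.072 to 0.045 with 1 array left out (0.024 without input 1 and 0.045 without PABP1 IP 2). Within slide 1 Trim28 was -0.019 in the GFP IP over input and -0.019 in the GFP IP over the PABP1 IP. For A_51_P495012 the GFP IP over input was -0.011 within slide 2.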
